A study of Mus musculus with 24 samples.

Results

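The genes described here are those in bone marrow-derived macrophages (BMDMs) where the joint effect of cancer-conditioned medium and CDDO-Me departed from the sum of the separate effects of medium and drug. CDDO-Me, or bardoxolone methyl, is a synthetic oleanane triterpenoid that activates the transcription factor NRF2. Marrow cells of C57BL/6 mice were matured with the growth factor M-CSF and then held for 24 h in 1 of 4 conditions, with 3 libraries in each. The media/vehicle BMDMs received medium that had stood without cells plus vehicle, and the media/CDDO-Me BMDMs received the same medium with 100 nM CDDO-Me. The WT CM/vehicle and WT CM/CDDO-Me BMDMs received 75% medium conditioned for 48 h by unedited LL2 cells, a Lewis lung carcinoma line of the mouse, with vehicle or 100 nM CDDO-Me. These 12 libraries were chosen by their labels out of 24, and the other 12 came from BMDMs given CM of LL2 cells with a knockout of KEAP1 or NRF2. The knockouts were made in the LL2 cells, whose own RNA was not part of the tables, so the macrophages of all groups were genetically unedited and carried no change that could check those labels. The study describes the 3 samples of a group as independent without saying whether they came from separate mice, so p-values measure the spread between these samples, which may be in part technical.

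Macrophages read the signals around them through a small set of transcription factors. Interferons act through JAK kinases, STAT factors and the IRF family to switch on antiviral effectors, large GTPases that attack intracellular parasites, and the machinery that presents antigen on MHC class I and II. IL-4 and IL-13 act through STAT6 to switch on an alternative activation program with arginase, chitinase-like proteins and lectins. KEAP1 holds NRF2 down, and electrophiles such as CDDO-Me release NRF2, which then drives detoxification and thiol genes.

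The departure, called the interaction here, was the CDDO-Me effect in WT CM minus the CDDO-Me effect in media, on the scale of log2(scaled TPM + 1), where TPM is transcript abundance set to the same total in every library. An interaction of 0 means that the medium and drug effects summed on this log scale, and an interaction of 1 means that the level in WT CM/CDDO-Me BMDMs was 2-fold above that sum. For low genes the added 1 makes the value an understatement. Limma was fitted to all 24 libraries with 8 group means, with Benjamini-Hochberg adjustment across the 13661 genes tested and a threshold of 0.05. The sum of the 2 effects was also converted back to scaled TPM, so that it could be set beside the level measured. For genes that did not pass, the 95% interval of the interaction is given in log2 units. It is not adjusted for the number of genes, so it can exclude 0 for a gene that did not pass.

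The cells carried the markers of macrophages in all 4 groups. All 10 macrophage markers stood above 1 TPM in each group, and their summed level ran from 15412 to 25487 TPM over the 12 libraries. The 10 T and NK cell markers summed to between 6.86 and 16.4 TPM, the 6 B cell markers to between 57.9 and 120 TPM and the 8 neutrophil markers to between 11.1 and 57.6 TPM. The 5 endothelial markers summed to 58.3 to 67.0 TPM in media/vehicle and 28.5 to 54.1 TPM in media/CDDO-Me. In WT CM/vehicle they summed to 92.5 to 128 TPM and in WT CM/CDDO-Me to 40.3 to 76.2 TPM. Fibroblast markers were present and moved with the groups. Their summed level was 1153 to 1905 TPM in media/vehicle, 1106 to 2838 TPM in media/CDDO-Me, 682 to 1296 TPM in WT CM/vehicle and 266 to 714 TPM in WT CM/CDDO-Me. In bulk RNA, fewer cells of a type and less RNA per cell cannot be told apart. Of the 10 fibroblast markers, only Acta2, a smooth muscle actin, passed the interaction test, at -1.63 ± 0.47 (SE, adjusted p = 0.0227), and it lost that call without any 1 of 4 libraries, WT CM/vehicle replicate 2, media/CDDO-Me replicate 2 and WT CM/CDDO-Me replicates 1 and 3. With the mean level of these 10 markers added to the fit as a covariate, an alternative chosen after seeing the data, 2423 genes passed. Among the 12 libraries, 17817 to 18586 genes were above 0. Both NRF2 KO CM libraries numbered 3 stood apart from all others in the fit, with 15702 and 16299 genes above 0, and without them 3916 genes passed the interaction test, again an alternative chosen after seeing the data.

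The joint effect departed from the sum in 2055 of 13661 genes, which is 15.0%. In 1134 genes, or 8.30%, the joint level was higher than the sum, and in 921 genes, or 6.74%, it was lower. With library weights 5394 genes passed, 2654 higher and 2740 lower, and with the libraries of these 4 groups alone 3684 passed, 2114 higher and 1570 lower. A departure of at least 1 on the log2 scale was found for 722 genes above the sum, or 5.29%, and 569 below it, or 4.17%, and the median size among all 2055 was 1.22, against a median interaction of -0.03 over all genes tested. When the same difference was taken on linear TPM, 3 of the 2055 genes changed sign. In 1994 of the 2055, none of the 9 CDDO-Me minus vehicle library differences in WT CM overlapped the 9 in media, which held for 27.5% of all genes tested. Without scaling between libraries, the median interaction moved to -0.12 and the split became 995 higher and 1159 lower. The scaling factors of the WT CM/CDDO-Me libraries were 0.91 to 0.94, below the range of 0.963 to 1.08 in the other 3 groups. The separate effects of drug and medium were counted in the same fit. CDDO-Me moved 821 genes, or 6.01%, in media, of which it raised 420, or 3.07%, and lowered 401, or 2.94%. WT CM moved 1003 genes, or 7.34%, under vehicle, of which it raised 591, or 4.33%, and lowered 412, or 3.02%. CDDO-Me moved 3798 genes, or 27.8%, in WT CM, of which it raised 1895, or 13.9%, and lowered 1903, or 13.9%.

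**Figure D1:**
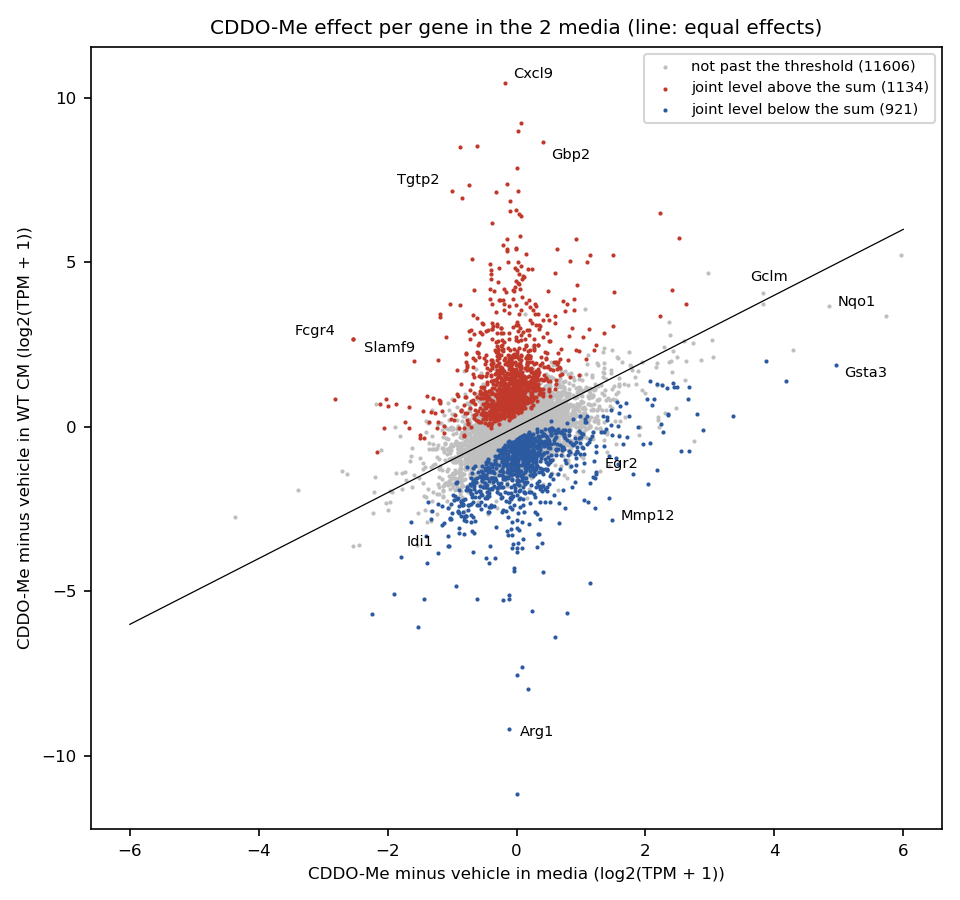
Each point is 1 of 13661 genes, with its CDDO-Me effect in media on the horizontal axis and in WT CM on the vertical axis, both as log2(scaled TPM + 1) differences between groups of 3 libraries, and the line marks equal effects in both. The 1134 genes above the sum lie mostly near 0 on the horizontal axis and reach 10.46 on the vertical axis at Cxcl9, the 921 genes below the sum include Arg1 at -9.19, and Fcgr4 and Slamf9 lie in the upper left, lowered in media and raised in WT CM.

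Most departures came from genes where the test for CDDO-Me passed in WT CM alone. Not passing in media does not mean no change there: Cxcl16, in this class, averaged 140 TPM in media/vehicle and 87.4 TPM in media/CDDO-Me. Of the 2055 genes, 1625, or 79.1%, passed the test for CDDO-Me in WT CM and not in media, 958 of them with a joint level above the sum and 667 below. A further 122 passed in media and not in WT CM. In 111 genes CDDO-Me moved the gene the same way in both and further in WT CM, and in 19 the same way but less in WT CM. CDDO-Me moved 86 genes in opposite directions, 43 to each side, and 92 passed for the drug in neither medium by itself. This sorting uses the same libraries as the interaction and describes it without adding a test.

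The interferon-induced GTPases had the largest median departure of the 24 gene lists. All 18 members tested were higher than the sum, where 8.30% of all genes were, with a median interaction of 6.81. The shares of all genes, 8.30% above the sum and 6.74% below, are the background for the counts of every list. These proteins coat and break open the vacuoles of intracellular microbes. Gbp2, a guanylate-binding protein encoded at chr3:142326349-142343779 (GRCm39), stood at 9.03, 9.08 and 9.41 TPM in media/vehicle, 12.7, 13.2 and 11.6 in media/CDDO-Me, 10.6, 8.56 and 17.5 in WT CM/vehicle and 4494, 4152 and 5675 in WT CM/CDDO-Me. The WT CM/CDDO-Me libraries were far above the other 9, which lay between 8.56 and 17.5 TPM. Summing the medium and drug effects gave 15.98 scaled TPM, the level measured was 5138, and the interaction was 8.24 ± 0.32 (SE, adjusted p = 2.33e-13). Iigp1, an immunity-related GTPase, read 1647, 1688 and 1880 TPM in WT CM/CDDO-Me and at most 2.69 TPM in the other 9 libraries, with an interaction of 9.16 ± 0.23 (SE, adjusted p = 4.67e-16). Gbp4 read 604, 607 and 703 TPM against at most 0.893 TPM elsewhere, and its interaction of 8.96 ± 0.31 (SE, adjusted p = 4.31e-14) was next among the GTPases. Gbp2b was listed at 0 in the other 9 libraries and at 253, 177 and 213 TPM in WT CM/CDDO-Me, so no fold is given. Gbp5 and Gbp6 departed by 7.46 and 7.54, Igtp by 6.65 and Irgm1 by 5.16. Tgtp1 and Tgtp2, T cell-specific GTPases that are near-identical neighbours and may share reads, departed by 8.09 and 8.18.

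Promoter windows were searched for the core of the interferon-stimulated response element, and for 3 other cores. RefSeq windows of 250 bases before to 50 bases after the start (GRCm38.p6) matched 843 of the 1134 genes above the sum, 699 of the 921 below it and 9987 of the 13661 tested. The interferon core searched was GAAA, any 2 bases and GAAA, and all cores were searched on both strands. At least 1 window held it in 104 genes above the sum, or 12.3%, and in 21 genes below it, or 3%, against 3.99% of genes tested and 3.99% of all 27025 genes with a window. All 10 GTPases with a window held it, as did 16 of 28 antiviral effectors. The GAS core, which is TTC, any 3 bases and GAA, was in 10.4% above the sum, 6.87% below and 8.29% of genes tested, and the spacing that STAT6 prefers, with any 4 bases between TTC and GAA, was in 7.35%, 8.58% and 6.74%. The ARE core that NRF2 binds, which is TGAC, any 3 bases and GC, was in 16.1%, 20.6% and 17.1%. These shares were not tested, and a match says only that the letters are there. The stretches before the start of 5 genes above the sum are shown because they place the core within 100 bases of the start. They were found by exact match in GRCm39, hold no base of an annotated exon, run 5′ to 3′ on the strand of the gene, and carry the core in capitals. They lie at chr11:48955040-48955139 on the minus strand for Tgtp2, chr11:58105703-58105788 on the plus strand for Irgm2, chr10:34004011-34004068 on the minus strand for Calhm6, chr1:170846395-170846465 on the plus strand for Fcgr4 and chr4:156285304-156285375 on the minus strand for Isg15, where 3 overlapping cores run together. A longer annotated transcript of Irgm2 begins further upstream, so that its stretch lies inside the annotated gene, at chr11:58090444-58113615, just before an inner exon.
Tgtp2: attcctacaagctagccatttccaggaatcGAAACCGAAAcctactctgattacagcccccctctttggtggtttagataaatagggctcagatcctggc
Irgm2: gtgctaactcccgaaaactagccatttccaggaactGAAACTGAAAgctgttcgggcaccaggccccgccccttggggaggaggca
Calhm6: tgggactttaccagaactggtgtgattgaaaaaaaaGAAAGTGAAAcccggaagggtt
Fcgr4: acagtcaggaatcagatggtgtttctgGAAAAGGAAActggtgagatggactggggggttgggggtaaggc
Isg15: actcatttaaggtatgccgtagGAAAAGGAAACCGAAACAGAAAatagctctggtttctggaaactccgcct

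Among the genes that carry the interferon signal, 9 of 17 were above the sum and none below, with a median of 1.08. Irf1, an interferon-induced transcription factor, stood at 48.4, 46.7 and 54.2 TPM in media/vehicle, 59.7, 50.1 and 76.5 in media/CDDO-Me, 74.6, 56.8 and 112 in WT CM/vehicle and 889.5, 914 and 986 in WT CM/CDDO-Me. The 3 libraries with both treatments were above the other 9, and neither the medium effect under vehicle nor the drug effect in media passed the test. Summing the effects gave 96.8 scaled TPM against 1009 measured, an interaction of 3.37 ± 0.36 (SE, adjusted p = 1.02e-06). Irf8, a factor of macrophage identity, departed by 2.64 ± 0.28 (SE, adjusted p = 7.45e-07). Stat2 was 26.6, 26.7 and 26.97 TPM in media/vehicle, 47.6, 37.7 and 48.5 TPM in WT CM/vehicle and 133, 139.5 and 158 TPM in WT CM/CDDO-Me, a departure of 1.87 ± 0.16 (SE, adjusted p = 5.49e-08) on top of a medium effect that itself passed the test. Irf7 and Irf9 departed by 2.18 and 1.08. Ifngr1 and Ifngr2, the chains of the interferon gamma receptor, did not pass, with intervals of -0.87 to 0.15 and -0.403 to 0.67. Socs1, which feeds back on cytokine signalling, was 1.196, 0.978 and 0.652 TPM in media/vehicle, 22.3, 23.1 and 25.8 TPM in WT CM/vehicle and 112, 111 and 125 TPM in WT CM/CDDO-Me, with an interaction of 2.38 ± 0.29 (SE, adjusted p = 6.18e-06). Ifnb1, which encodes interferon beta, was listed at 0 in all 12 libraries, and Ifng, which encodes interferon gamma, was listed at 0 in 11 and at 0.0637 TPM in 1 WT CM/vehicle library.

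The antiviral effectors followed. Of 40 listed, 38 were tested, 31 were above the sum and none below, with a median of 2.22. Isg15, a ubiquitin-like modifier, stood at 12.5, 12.7 and 11.2 TPM in media/vehicle, 9.91, 9.67 and 8.899 in media/CDDO-Me, 11.5, 8.92 and 9.88 in WT CM/vehicle and 110.3, 117 and 117 in WT CM/CDDO-Me. Only the libraries with both treatments exceeded the band of 8.90 to 12.7 TPM that held the other 9, and the interaction was 3.82 ± 0.27 (SE, adjusted p = 3.98e-09). Ifit3, which binds viral RNA complexes, fell with WT CM under vehicle, from 4.41, 3.21 and 6.097 TPM to 0.996, 1.09 and 1.604 TPM, and was 53.98, 56.5 and 109.6 TPM in WT CM/CDDO-Me, a departure of 5.79 ± 0.44 (SE, adjusted p = 8.70e-09). Ifi44 departed by 4.29 and Parp14, an ADP-ribosyltransferase, by 2.53.

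**Figure D2:**
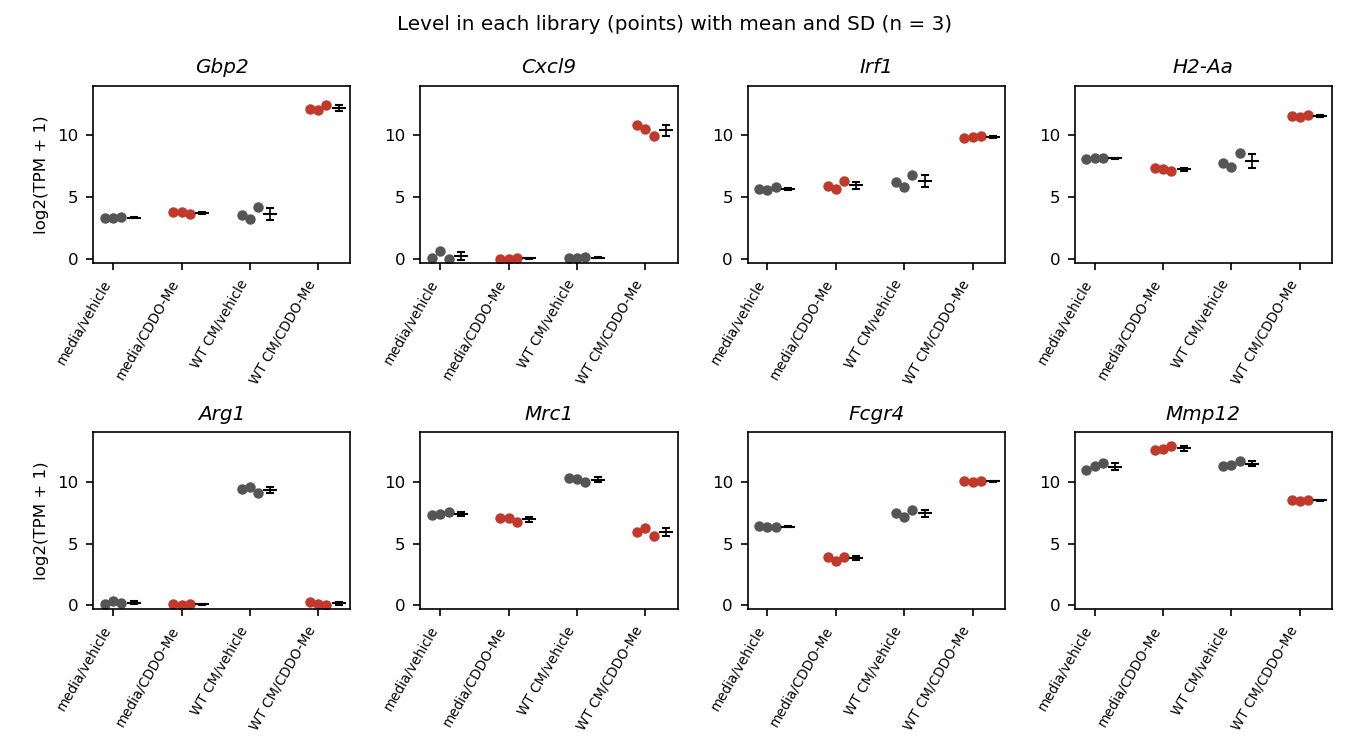
Log2(TPM + 1) of the deposited values of 8 genes in each of the 12 libraries, with the mean and SD of 3 libraries beside the points and CDDO-Me groups in red. Gbp2, Cxcl9, Irf1 and H2-Aa were high in WT CM/CDDO-Me alone, Arg1 and Mrc1 were high in WT CM/vehicle alone, and Fcgr4 and Mmp12 moved with CDDO-Me in opposite directions in the 2 media.

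Chemokines departed in both directions. Of 10 CXC chemokines tested, 3 were above the sum and 1 below, with a median of 0.66. Of 11 CC chemokines 1 was above and 5 below, with a median of -1.23. Among all genes, 8.30% were above and 6.74% below, so the CXC member below and the CC member above are near the background. Cxcl9, which draws CXCR3-bearing T cells, was at most 0.544 TPM in the 9 other libraries and 1792, 1458 and 981 TPM in WT CM/CDDO-Me, an interaction of 10.64 ± 0.34 (SE, adjusted p = 1.09e-14). Cxcl10, which shares that receptor, was 361, 329 and 358 TPM against at most 2.01 TPM, an interaction of 9.36 ± 0.45 (SE, adjusted p = 7.51e-12). Cxcl16, a ligand of CXCR6, showed a different shape, with 143, 131 and 146 TPM in media/vehicle, 89.3, 85.1 and 87.8 in media/CDDO-Me, 60.1, 52.5 and 70.02 in WT CM/vehicle and 230.3, 219.9 and 158 in WT CM/CDDO-Me. WT CM lowered it under vehicle, the fall with CDDO-Me in media did not pass, and the 3 joint libraries were above all 9 others, with an interaction of 2.49 ± 0.297 (SE, adjusted p = 4.11e-06). Ccl5, a chemokine for T cells, was 1806, 1150 and 433 TPM in WT CM/CDDO-Me, a wide spread between libraries, and at most 10.2 TPM in the others, an interaction of 9.16 ± 1.02 (SE, adjusted p = 1.68e-06). Pf4, a CXC chemokine of platelets that macrophages also make, was the CXC member below the sum, at 276, 269 and 239 TPM in WT CM/vehicle and 12.6, 14.2 and 16.3 TPM in WT CM/CDDO-Me, an interaction of -3.52 ± 0.33 (SE, adjusted p = 1.40e-07). Ccl9, Ccl24 and Ccl6 departed by -5.83, -5.097 and -1.73, the first 2 of them from the rule for the largest departures.

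Antigen presentation was above the sum in nearly all listed members. For MHC class I, 18 of 20 genes were above and none below, with a median of 2.06, and for MHC class II 10 of 10 were above, with a median of 3.53. H2-Aa, the alpha chain of the class II molecule I-A, stood at 272, 287 and 284 TPM in media/vehicle, 159.9, 156 and 139 in media/CDDO-Me, 222, 176 and 384 in WT CM/vehicle and 3021, 2818 and 3139 in WT CM/CDDO-Me. CDDO-Me lowered it in media and raised it in WT CM, and the joint libraries lay above all others. The summed effects gave 134 scaled TPM and the measurement 3247, with an interaction of 4.59 ± 0.34 (SE, adjusted p = 5.86e-09). H2-Ab1 and H2-Eb1 departed by 4.83 and 4.77, and Cd74, the invariant chain, by 3.92 from 1344, 1020 and 2135 TPM in WT CM/vehicle to 13420, 12590 and 13310 TPM in WT CM/CDDO-Me. Ciita, the master regulator of class II genes, was 5.402, 3.35 and 7.11 TPM in media/vehicle, 3.599, 2.79 and 4.44 TPM in media/CDDO-Me, 4.67, 4.54 and 9.74 TPM in WT CM/vehicle and 190.0, 185 and 214 TPM in WT CM/CDDO-Me, an interaction of 5.34 ± 0.42 (SE, adjusted p = 1.41e-08). H2-DMa, which loads peptide onto class II, departed by 3.13. Among the class I genes, the immunoproteasome parts Psmb9 and Psme2 departed by 2.89 ± 0.23 (SE, adjusted p = 2.14e-08) and 2.08 ± 0.13 (SE, adjusted p = 5.33e-10), the peptide editor Tapbpl by 2.79 and H2-Q4, a member of a family of near-identical class I genes that may share reads, by 2.56. The summed level of 7 dendritic cell markers was 1.07 to 2.06 TPM in the other 9 libraries and 100.5 to 127 TPM in WT CM/CDDO-Me. Nearly all of it was Clec9a, and only 2 of the 7 stood above 1 TPM in WT CM/CDDO-Me. The part of these markers in this result was not tested.

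**Figure D3:**
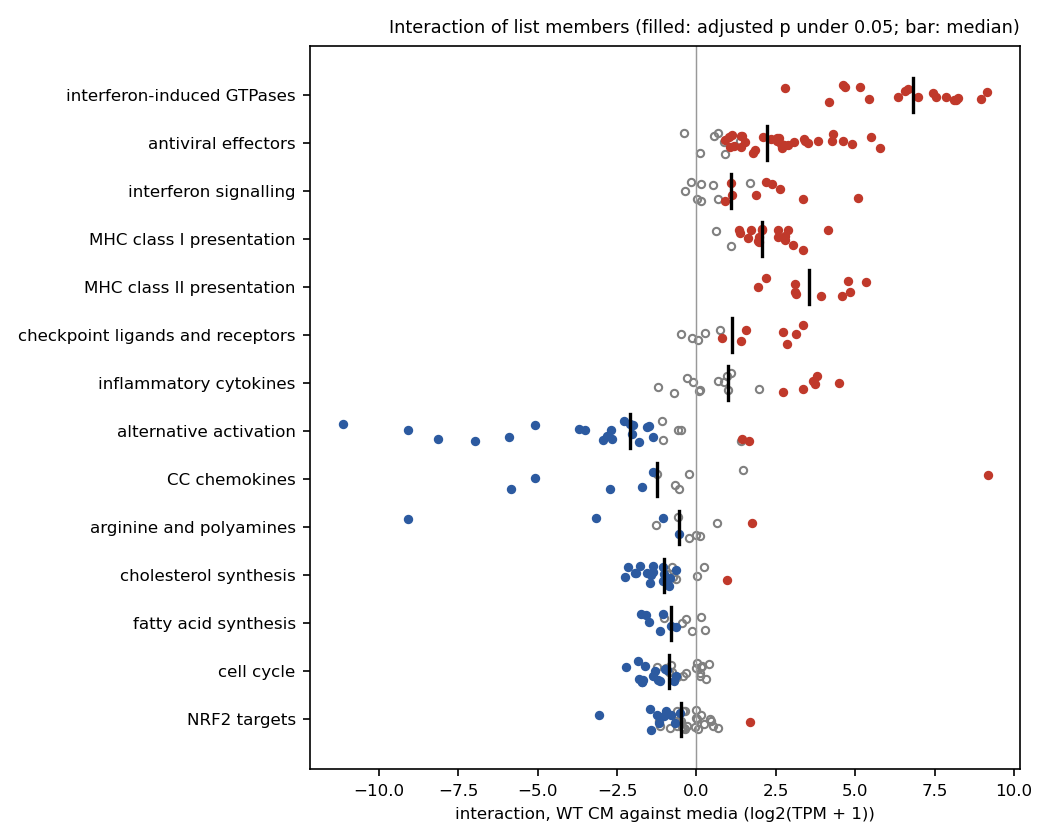
The interaction of each tested member of 14 gene lists, as a log2(scaled TPM + 1) difference of differences over 12 libraries, with filled points for members past the adjusted threshold and a bar at the list median. The horizontal axis is the interaction and each line of points a list. The interferon-induced GTPases lie farthest to the right, with a median of 6.81, and alternative activation farthest to the left, with a median of -2.10.

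Among checkpoint ligands, cytokines and Toll-like receptors, some genes were above the sum and none below. Of 12 checkpoint genes 7 were above and none below, with a median of 1.10. Cd274, which encodes PD-L1, stood at 24.7, 22.8 and 24.6 TPM in media/vehicle, 15.7, 13.6 and 28.2 in media/CDDO-Me, 45.8, 39.7 and 58.9 in WT CM/vehicle and 356, 321 and 386 in WT CM/CDDO-Me. WT CM raised it under vehicle, and the 3 joint libraries were above all 9 others, with 36.6 scaled TPM from the sum against 384 measured, an interaction of 3.35 ± 0.43 (SE, adjusted p = 9.00e-06). Pdcd1lg2, which encodes PD-L2, was 0.264, 0.114 and 0.650 TPM in media/vehicle, 42.7, 34.8 and 70.5 TPM in WT CM/vehicle and 25.7, 26.9 and 31.9 TPM in WT CM/CDDO-Me, and its interaction of -0.49 did not pass, with an interval of -1.35 to 0.38. Icosl, Havcr2 and Lgals9, a costimulatory ligand, the receptor TIM-3 and a galectin that binds it, departed by 2.71, 2.84 and 0.801. Of 18 inflammatory cytokine genes tested 6 were above, with a median of 0.98. Tnf was lower in WT CM/vehicle, at 3.79, 4.07 and 3.79 TPM, than in media/vehicle, at 12.9, 13.9 and 13.4 TPM, and reached 35.4, 40.7 and 39.5 TPM with both, an interaction of 3.65 ± 0.34 (SE, adjusted p = 1.66e-07). Il27, Tnfsf10 and Il18bp, which encode a cytokine subunit, the death ligand TRAIL and a decoy for IL-18, departed by 4.49, 3.79 and 3.37. Nos2, the inducible nitric oxide synthase, was 10.2, 9.07 and 2.09 TPM in WT CM/CDDO-Me and at most 0.123 TPM elsewhere, an interaction of 2.74 ± 0.69 (SE, adjusted p = 0.00942). Il1b, Il6 and Cxcl5 did not pass, with intervals of -0.07 to 4.02, -0.298 to 2.297 and -0.98 to 1.93. Of 15 Toll-like receptor genes 4 were above, with a median of 0.42, led by Tlr9, a DNA sensor, at 3.42 ± 0.38 (SE, adjusted p = 1.65e-06), with Tlr2 at 1.55, the adaptor Myd88 at 1.37 and Unc93b1, a chaperone of Toll-like receptors, at 0.89. Of 14 NF-kB feedback genes 1, Nfkbiz, was above, near the 8.30% of all genes, with a median of 0.32. Of 23 glycolysis and hypoxia genes 6 were above and none below, with a median of 0.46. Pfkp and Pfkfb3, which serve the phosphofructokinase step, departed by 1.82 and 1.97, and Hk1, a hexokinase, by 0.67. Vegfa, an angiogenic factor, departed by 1.36 ± 0.39 (SE, adjusted p = 0.0211) and lost its call without any 1 of 7 libraries.

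Most genes of alternative activation were below the sum. Of 29 listed 27 were tested, 20 were below the sum, where 6.74% of all genes were, and 2 above, with a median of -2.10. WT CM raised 20 of the 27 under vehicle, where it raised 4.33% of all genes, while CDDO-Me in media raised 2 and lowered 1, where it raised 3.07% and lowered 2.94% of all genes. Arg1, the arginase that turns arginine to ornithine and lies at chr10:24791118-24803817 (GRCm39), stood at 0.0884, 0.301 and 0.128 TPM in media/vehicle, 0.09897, 0.0269 and 0.0943 in media/CDDO-Me, 681, 765 and 544 in WT CM/vehicle and 0.239, 0.0823 and 0.0554 in WT CM/CDDO-Me. It was high in the 3 WT CM/vehicle libraries alone, and with CDDO-Me it lay within the range of the media libraries. The sum of the effects gave 609 scaled TPM against 0.133 measured, an interaction of -9.07 ± 0.302 (SE, adjusted p = 2.25e-14). Retnla, a secreted resistin-like protein, was listed at 0 in 9 libraries and at 1990, 1753 and 3262 TPM in WT CM/vehicle, so no fold is given. Chil4, a relative of Chil3, was likewise listed at 0 in both media groups and reached 6.33, 5.12 and 6.94 TPM in WT CM/vehicle. Chil3, a chitinase-like protein, was 461, 668 and 1257 TPM in WT CM/vehicle and at most 4.56 TPM in the other 9, an interaction of -8.14 ± 0.63 (SE, adjusted p = 1.08e-08). Mrc1, the mannose receptor CD206, stood at 157, 164 and 188 TPM in media/vehicle, 134, 137 and 105 in media/CDDO-Me, 1306, 1193 and 1015 in WT CM/vehicle and 59.9, 76.2 and 48.3 in WT CM/CDDO-Me. All 3 joint libraries were below the other 9, and the interaction was -3.704 ± 0.35 (SE, adjusted p = 2.09e-07). Mgl2, a galactose-type lectin, was 1394, 1155 and 620.4 TPM in WT CM/vehicle and 13.6, 17.6 and 4.102 TPM in WT CM/CDDO-Me, an interaction of -6.98 ± 0.64 (SE, adjusted p = 1.15e-07). Clec10a, a related lectin, was 26.4, 27.8 and 27.1 TPM in media/vehicle, 408, 356 and 295 TPM in WT CM/vehicle and 95.9, 102 and 77.7 TPM in WT CM/CDDO-Me, above media/vehicle in all 3 joint libraries, an interaction of -2.28 ± 0.24 (SE, adjusted p = 8.48e-07). Cish, a feedback inhibitor of cytokine signalling, departed by -3.51 ± 0.44 (SE, adjusted p = 7.67e-06). Cd163, a scavenger receptor for haemoglobin, departed by -2.02.

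The 2 listed genes above the sum were receptor chains. Il4ra, the shared receptor chain for IL-4 and IL-13, stood at 59.2, 56.4 and 63.6 TPM in media/vehicle, 63.98, 64.1 and 56.96 in media/CDDO-Me, 140.3, 127 and 95.3 in WT CM/vehicle and 349.5, 340.0 and 259 in WT CM/CDDO-Me, so that it rose with WT CM and rose again with CDDO-Me, an interaction of 1.45 ± 0.19 (SE, adjusted p = 1.14e-05). Il13ra1, its partner for IL-13, departed by 1.65 ± 0.27 (SE, adjusted p = 0.000172). Stat6, the factor below those receptors, did not pass, at 0.197 with an interval of -0.13 to 0.53. Tgm2, a transglutaminase, also did not pass in this fit, at 1.39 with an interval of 0.17 to 2.61. Of 11 arginine and polyamine genes 4 were below and 1 above, with a median of -0.54, where 6.74% of all genes were below and 8.30% above. Slc7a2, which imports arginine, was 47.7, 47.5 and 63.95 TPM in WT CM/vehicle and 4.303, 4.49 and 3.77 TPM in WT CM/CDDO-Me, against 5.22, 5.25 and 5.64 TPM in media/vehicle, an interaction of -3.15 ± 0.37 (SE, adjusted p = 3.03e-06), and Srm, the spermidine synthase, and Azin1, an antizyme inhibitor, departed by -1.04 and -0.54. Outside the list, the rule for the largest departures named Ms4a4a, a membrane protein of macrophages, at -7.38, Lipn, a lipase, at -6.43, Tmem26 at -5.05 and Scn3a, a sodium channel subunit, at -4.98. Ms4a4a, Lipn and Tmem26 went below the media libraries with both treatments. Lipn was 4.66, 4.34 and 4.21 TPM in media/vehicle, 66.3, 53.6 and 77.5 TPM in WT CM/vehicle and 0.104, 0.0300 and 0.961 TPM in WT CM/CDDO-Me. Serpina3f, a serine protease inhibitor, was named above the sum by the same rule, at 226, 236 and 233 TPM in WT CM/CDDO-Me and an interaction of 7.16 ± 0.22 (SE, adjusted p = 6.43e-15).

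**Figure D4:**
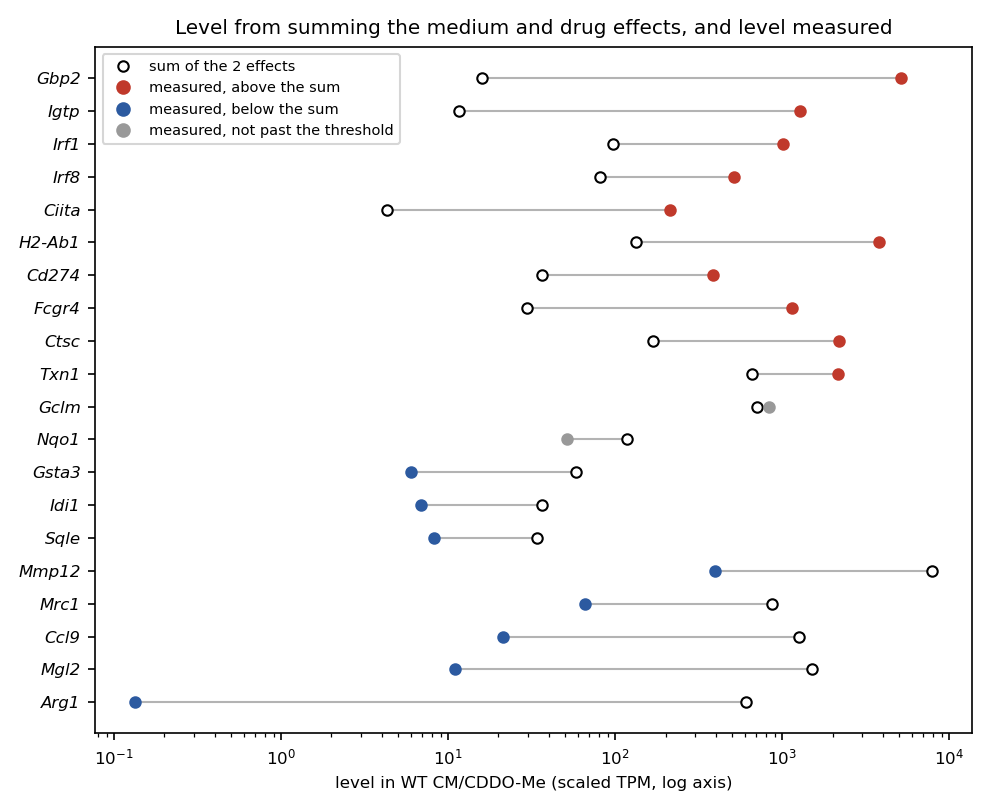
For 20 genes, the level in WT CM/CDDO-Me BMDMs given by summing the medium and drug effects (open) and the level measured (filled), in scaled TPM on a log axis from the fit to groups of 3 libraries, with grey for genes not past the threshold. Gbp2 was measured at 5138 against 15.98 from the sum and Arg1 at 0.13 against 609.1, while Gclm, at 832 against 705.9, lay close to the sum.

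CDDO-Me moved 86 genes in opposite directions in the 2 media. Fcgr4, an activating receptor for IgG that lies at chr1:170846466-170857330 (GRCm39), stood at 86.8, 78.7 and 81.8 TPM in media/vehicle, 14.1, 11.3 and 14.3 in media/CDDO-Me, 179.5, 145 and 212 in WT CM/vehicle and 1066, 997 and 1097 in WT CM/CDDO-Me. The 4 groups did not overlap: the drug took the gene down in media and up in WT CM, where the change was 2.68 against -2.54, an interaction of 5.22 ± 0.38 (SE, adjusted p = 4.98e-09). Fcgr1, the high-affinity IgG receptor, was 83.7, 76.5 and 93.4 TPM in media/vehicle, 38.7, 34.4 and 35.96 TPM in media/CDDO-Me, 49.01, 51.03 and 51.3 TPM in WT CM/vehicle and 494, 448 and 496 TPM in WT CM/CDDO-Me, an interaction of 4.52 ± 0.21 (SE, adjusted p = 5.66e-12). Slamf9, a receptor of the SLAM family, was lowered by medium and by drug and was highest with both, at 20.8, 21.4 and 17.04 TPM in media/vehicle, 2.83, 3.29 and 1.69 in media/CDDO-Me, 7.798, 8.06 and 8.004 in WT CM/vehicle and 47.4, 57.8 and 49.5 in WT CM/CDDO-Me, an interaction of 5.19 ± 0.27 (SE, adjusted p = 2.65e-11). Calhm6, an ion channel of macrophages, moved by 6.97 in WT CM and -0.85 in media, with an interaction of 7.81 ± 0.28 (SE, adjusted p = 8.68e-14). C1qb, a chain of complement C1q, and Nfkbiz, a nuclear regulator of NF-kB, went the same 2 ways, with interactions of 1.22 and 2.602. In the other direction, Mmp12, the macrophage elastase, stood at 1966, 2436 and 2973 TPM in media/vehicle, 6095, 6427 and 7825 in media/CDDO-Me, 2507, 2690 and 3302 in WT CM/vehicle and 379, 350.4 and 361 in WT CM/CDDO-Me. The drug raised it above every vehicle library in media and took it below every other library in WT CM, with 7897 scaled TPM from the sum and 394 measured, an interaction of -4.32 ± 0.42 (SE, adjusted p = 3.13e-07). Ear2, an eosinophil-associated ribonuclease, and Egr2, a transcription factor of the alternative program, were also raised by the drug in media and lowered in WT CM, with interactions of -5.896 and -2.67. Of 12 matrix protease genes 4 were below the sum and none above, with a median of -0.79, where 6.74% of all genes were below and 8.30% above. Beside Mmp12 these were Mmp27 at -3.01, the inhibitor Timp2 at -1.47 and the sheddase Adam8 at -1.18. By median, the summed fibroblast markers were lowest in the joint group, at 266 to 714 TPM. With the marker mean as a covariate, an alternative chosen after seeing the data, Mmp12, Mmp27, Timp2 and Adam8 passed in the same direction. The marker level differed between the groups, so this fit cannot tell the part of the markers from that of the groups. The part of these markers in this result was not tested.

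Most NRF2 targets rose with CDDO-Me in both media, and 25 of 36 did not depart from the sum past the threshold. CDDO-Me raised 29 in media and 24 in WT CM, against 3.07% and 13.9% of all genes. It lowered none, and the median effects were 1.51 and 1.21. The interaction was below the sum for 10 and above for 1, with a median of -0.47. Among all genes 6.74% were below and 8.30% above, so the list held a larger share below. Gclm, the modifier subunit of glutamate-cysteine ligase, stood at 77.9, 81.7 and 101 TPM in media/vehicle, 1161, 1084 and 1471 in media/CDDO-Me, 50.2, 43.5 and 52.96 in WT CM/vehicle and 810.0, 749 and 741 in WT CM/CDDO-Me. Both CDDO-Me groups were far above both vehicle groups, and the interaction of 0.24 did not pass, with an interval of -0.596 to 1.07. Nqo1, a quinone reductase, rose by 4.84 in media and 3.67 in WT CM, and its interaction did not pass, with an interval of -2.14 to -0.197. Srxn1 and Slc7a11, a sulfiredoxin and the cystine importer, did not pass either, with intervals of -1.21 to -0.04 and -1.92 to 0.28. Gsta3, a glutathione transferase, stood at 1.75, 1.16 and 2.69 TPM in media/vehicle, 88.9, 67.4 and 111 in media/CDDO-Me, 0.621, 0.916 and 1.197 in WT CM/vehicle and 6.92, 4.09 and 5.94 in WT CM/CDDO-Me, so that the drug raised it in both media but less in WT CM, an interaction of -3.08 ± 0.46 (SE, adjusted p = 6.60e-05). Gclc, the catalytic partner of Gclm, passed in media and not in WT CM, with an interaction of -1.44 ± 0.399 (SE, adjusted p = 0.0173) that was lost without media/CDDO-Me replicate 3 (limma, adjusted p = 0.0548), and Ephx1 and Gstm1 departed by -1.17 and -0.96. Hmox1 and Txnrd1, haem oxygenase and thioredoxin reductase, departed by -0.79 ± 0.26 (SE, adjusted p = 0.0432) and -0.69 ± 0.22 (SE, adjusted p = 0.0403), and each lost its call without any 1 of 10 of the 12 libraries. Txn1, thioredoxin itself, was the target above the sum, with 279, 327 and 372 TPM in media/vehicle, 624, 627 and 743 in media/CDDO-Me, 289.6, 336 and 342 in WT CM/vehicle and 1712, 1742 and 2626 in WT CM/CDDO-Me, an interaction of 1.699 ± 0.24 (SE, adjusted p = 3.97e-05). Nfe2l2, which encodes NRF2, and Keap1 did not pass, with intervals of -0.78 to 0.77 and -0.14 to 1.04.

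Most sterol synthesis genes were raised by WT CM under vehicle, and with both treatments most were below the sum. Of 25 cholesterol synthesis genes 24 were tested, 17 were below the sum and 1, Pmvk, above, with a median of -1.03. WT CM raised 18 of them under vehicle, against 4.33% of all genes, and CDDO-Me lowered 13 in media and 21 in WT CM, against 2.94% and 13.9% of all genes. Idi1, an isomerase that makes the isoprene building block, stood at 36.9, 42.4 and 40.4 TPM in media/vehicle, 17.9, 20.4 and 17.2 in media/CDDO-Me, 75.7, 72.97 and 80.7 in WT CM/vehicle and 5.59, 8.22 and 5.52 in WT CM/CDDO-Me. The medium took it up, the drug took it down in both media, and the joint libraries were the lowest, with an interaction of -2.24 ± 0.23 (SE, adjusted p = 5.69e-07). Sqle and Fdft1, squalene epoxidase and squalene synthase, departed by -1.92 ± 0.19 (SE, adjusted p = 4.75e-07) and -1.36 ± 0.17 (SE, adjusted p = 6.20e-06), and Acat2, a thiolase, by -2.16. Of 13 fatty acid synthesis genes tested 7 were below and none above, with a median of -0.82, among them Fasn at -1.51 and the desaturases Scd1, Scd2 and Fads2 at -1.604, -1.14 and -1.75. Of 12 genes of cholesterol efflux 3 were below and none above, with a median of -0.29, where 6.74% of all genes were below and 8.30% above. Plin2, a lipid droplet coat protein, departed by -1.04 ± 0.18 (SE, adjusted p = 0.000387), Lpcat3, a phospholipid acyltransferase, by -0.48 and Apoc2, an apolipoprotein, by -1.34. Lpcat3 lost its call without WT CM/CDDO-Me replicate 1 and Apoc2 without any 1 of 4, and on linear TPM the difference of Apoc2 turned positive. Abca1, a cholesterol exporter, did not pass, with an interval of -0.56 to -0.04.

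About as many cell division genes were below the sum as were not. Of 31 cell cycle genes 15 were below and none above, with a median of -0.86, and CDDO-Me lowered 12 in media and 24 in WT CM, against 2.94% and 13.9% of all genes. Rrm2, a subunit of ribonucleotide reductase, was 25.9, 30.4 and 40.6 TPM in media/vehicle, 35.8, 37.2 and 25.9 TPM in media/CDDO-Me, 36.2, 38.9 and 26.1 TPM in WT CM/vehicle and 4.87, 7.36 and 6.29 TPM in WT CM/CDDO-Me. The joint libraries were below the other 9, which overlapped, and the interaction was -2.22 ± 0.37 (SE, adjusted p = 0.000218). Birc5, Ccna2 and Rrm1 departed by -1.80, -1.71 and -0.99, while Mki67 did not pass, with an interval of -2.17 to -0.29. By median, the summed fibroblast markers given above were also lowest in the joint group. With the marker mean as a covariate, an alternative chosen after seeing the data, Rrm2, Birc5, Ccna2 and Rrm1 passed in the same direction. Here too the fit cannot tell the part of the markers from that of the groups, because the marker level differed between the groups. The part of these markers in this result was not tested.

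Lysosomal and uptake genes went both ways. Of 12 cathepsins 2 were above and 3 below, with a median of -0.41, where 8.30% of all genes were above and 6.74% below. Ctsc, the cathepsin that activates granule proteases, was 248, 240.5 and 235 TPM in WT CM/vehicle and 1901, 1854 and 2324 TPM in WT CM/CDDO-Me, an interaction of 3.703 ± 0.24 (SE, adjusted p = 1.14e-09). Ctsh departed by 1.89, Ctsk, a collagen-degrading cathepsin, by -2.48 and Ctso by -0.61. Of 18 phagocytic receptor genes tested 3 were above and 4 below, with a median of 0.13, against the same shares of all genes. The scavenger receptor Stab1 departed by -2.02, Mertk, which takes up dying cells, by 1.05 and Scarb2, a lysosomal receptor, by 0.71. Of 20 genes of the integrated stress response 1 was above and 2 below, with a median of -0.03, where 8.30% of all genes were above and 6.74% below, so that these counts are near the background. Slc3a2, an amino acid carrier chain, departed by 0.897 ± 0.27 (SE, adjusted p = 0.0254) and lost its call without any 1 of 7 libraries, Phgdh, of serine synthesis, departed by -0.999 and Atf3 by -1.202. Ddit3, which encodes CHOP, did not pass, with an interval of -0.296 to 0.41. Of 15 heat shock genes 2 were below and none above, with a median of -0.29. With 6.74% of all genes below and 8.30% above, these counts are also near the background. The 2 were the chaperones Bag3 at -0.68 and Hspd1 at -0.59. Clec9a and Xcr1, receptors that mark cross-presenting dendritic cells, were named after their values were seen. Clec9a was 95.4, 95.5 and 123 TPM in WT CM/CDDO-Me and at most 0.497 TPM elsewhere, an interaction of 6.598 ± 0.28 (SE, adjusted p = 9.08e-13), and Xcr1 departed by 2.30 ± 0.19 (SE, adjusted p = 4.02e-08). Of the other 5 dendritic cell markers 4 were too low to be tested, and Zbtb46 did not pass, at -0.42. Cdh1, an adhesion molecule listed as an epithelial marker, was 3.06, 4.04 and 3.46 TPM in WT CM/vehicle and at most 0.173 TPM in the other 9 libraries, an interaction of -2.22 ± 0.17 (SE, adjusted p = 1.06e-08).

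The departure was also set beside the CM of edited LL2 cells. The CDDO-Me effect in WT CM differed from that in KEAP1 KO CM in 0 of 13661 genes with limma, with 225 at an unadjusted p under 0.05 and 18 with library weights. In KEAP1 KO CM/CDDO-Me, Gbp2 was 4356, 4174 and 5618 TPM and Arg1 0.123, 0.02903 and 0.0423 TPM. The interval of the difference between the drug effects of WT CM and KEAP1 KO CM was -1.03 to 0.30 for Gbp2, -0.94 to 0.57 for Irf1 and -0.02 to 1.24 for Arg1. Heph, a ferroxidase, Sh2b2, a signalling adaptor, and the pseudogene Smt3h2-ps4 were named by the rule for this comparison although none passed, the first 2 with intervals of -1.77 to -0.71 and -1.78 to -0.71. The CDDO-Me effect in WT CM differed from that in NRF2 KO CM in 1822 genes, or 13.3%, with a higher effect in WT CM for 1040, or 7.61%, and a lower one for 782, or 5.72%. In NRF2 KO CM/CDDO-Me, Gbp2 was 16.9, 19.2 and 18.6 TPM, Irf1 69.6, 66.2 and 86.7 TPM, H2-Aa 174, 172 and 134 TPM and Mmp12 4935, 5273 and 9397 TPM, and none of these overlapped WT CM/CDDO-Me. The difference between the drug effects of WT CM and NRF2 KO CM was 8.21 ± 0.32 for Gbp2, 3.45 ± 0.36 for Irf1, 5.05 ± 0.38 for Fcgr4, -3.68 ± 0.35 for Mrc1 and -8.71 ± 0.302 for Arg1 (SE), and each passed the adjusted threshold. All of these genes were described above for their interaction, which uses the same WT CM libraries. That they passed here is therefore no separate support. Set against media in the same way as WT CM, KEAP1 KO CM gave 2014 interaction genes, or 14.7%, of which 1145, or 8.38%, were above the sum and 869, or 6.36%, below. NRF2 KO CM gave 0 with limma, with 374 at an unadjusted p under 0.05 and 7 with library weights. Without both NRF2 KO CM libraries numbered 3, an alternative chosen after seeing the data, that count was again 0, with 341 at an unadjusted p under 0.05, while the difference between WT CM and NRF2 KO CM was found in 2949 genes, 1754 with a higher effect in WT CM and 1195 with a lower one. The interactions of KEAP1 KO CM and NRF2 KO CM against media share the media libraries with the one described here. The differences between the drug effects of WT CM and of KEAP1 KO CM or NRF2 KO CM share its WT CM libraries.

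**Figure D5:**
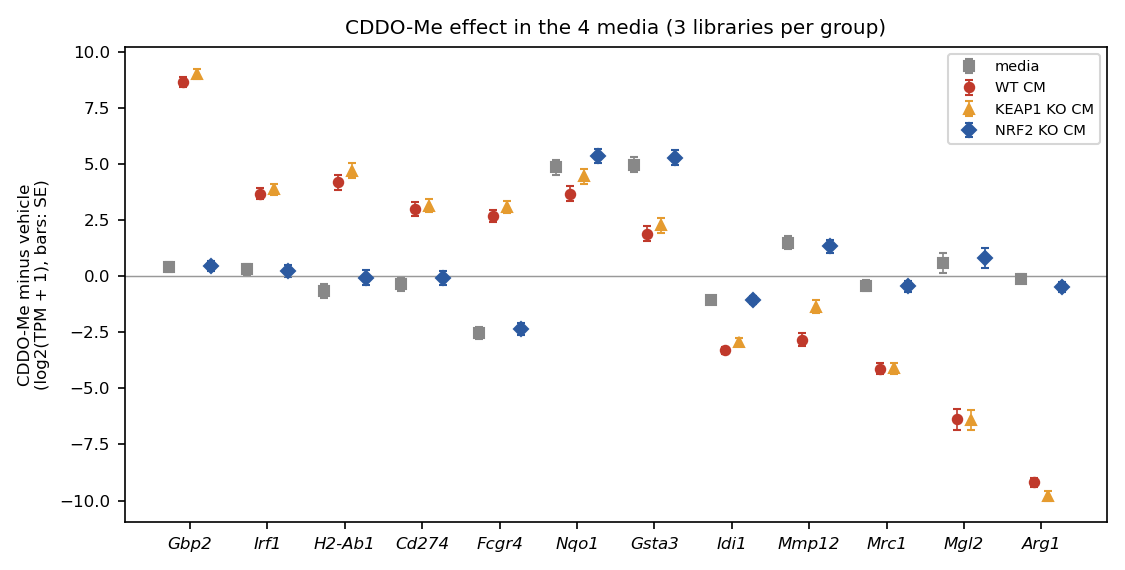
The CDDO-Me minus vehicle effect on 12 genes in media and in the CM of unedited, KEAP1 KO and NRF2 KO LL2 cells, as log2(scaled TPM + 1) with the SE from the fit and 3 libraries per group. Gbp2 moved by 8.65 in WT CM and 9.02 in KEAP1 KO CM against 0.41 in media and 0.44 in NRF2 KO CM, while Nqo1 rose in all 4 media.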

How the data were processed

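RNA of 24 BMDM libraries, 3 in each of 8 groups taken from the sample labels, was sequenced after poly-A selection. Per the labels and the methods of the study, the authors quantified reads with kallisto against the GRCm39 transcriptome and deposited 1 table of TPM per gene, with 35770 gene names. TPM keeps no depth, so depth is unknown and no counting intervals are given. A line without a gene name held 0.0199 to 0.0635% of each library and was left out of all steps. No other column of sample values was left unused (0 columns).

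From the deposited TPM, genes above 1 TPM in at least 3 libraries were kept, which left 13661. Factors of the TMM kind were computed without weights, with trims of 30% and 5%, and log2(scaled TPM + 1) was fitted with limma 3.58.1 in R 4.3.3, with 8 group means, 16 residual degrees of freedom and a trend in the variance prior. Tests were two-sided with Benjamini-Hochberg adjustment over all genes tested and a threshold of 0.05, and every adjusted p in the text comes from this limma fit. On simulated data the steps recovered the sign and size of planted changes but left part of them uncalled, and a stricter criterion on the share called, set first, was not met and was replaced. Alternatives were RLE factors or no scaling, no filter or a mean of at least 5 TPM, pseudocounts of 0.1 and 0.5, no trend, library weights, a replicate block, the compared groups alone, and each library left out in turn. Figures were drawn with matplotlib 3.10.9.

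Genes were named by rule. Among genes past the threshold with a mean of at least 5 TPM over the 12 libraries, above 0 in all 12 and with no overlap of the library differences, the 10 largest departures in each direction were named, and up to 5 genes moved in opposite directions were added. Leading genes of each list, a set of anchor genes that held Ifnb1, and the leading genes of the KEAP1 KO CM and NRF2 KO CM differences were added. A few others were chosen after their values were seen: Clec9a, Xcr1, Cdh1, Acta2, Il4, Il13 and Ifng. Further members of the gene lists and markers were named outside these rules. They were Cd74, Gclc, Pmvk, Fcgr1, Socs1, Clec10a, Cish, Egr2 and H2-DMa. Il13ra1, Irf9, Ifngr1, Ifngr2, Pdcd1lg2, Tgm2, Cd163 and Irgm2 were also named in this way. The genes, lists and rules were chosen with earlier results of these data known. Promoter windows came from RefSeq tables (GRCm38.p6) and matched genes by symbol, and gene positions came from a GRCm39 annotation. A few genes that the rule named are not reported here.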

Additional observations from a re-analysis of the deposited data

Results flagged for a closer look

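CDDO-Me had different effects in WT CM and in media for 2055 genes, and in WT CM and NRF2 KO CM for 1822 genes, by the limma test of each difference itself. Both differences use the same WT CM libraries. Among the named genes, 13 were moved by CDDO-Me past the threshold in opposite directions in WT CM and in media, with the difference tested. Of these, 10 were raised in WT CM and lowered in media. Their interactions on the log2 scale were 8.18 for Tgtp2, 7.81 for Calhm6, 5.22 for Fcgr4, 5.19 for Slamf9, 5.16 for Irgm1, 4.77 for H2-Eb1, 4.59 for H2-Aa, 4.52 for Fcgr1, 2.60 for Nfkbiz and 1.22 for C1qb. The other 3 were lowered in WT CM and raised in media, with interactions of -5.90 for Ear2, -4.32 for Mmp12 and -2.67 for Egr2.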

How the results depend on the processing

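The interaction count of 2055 stayed within 1.5 times under RLE scaling (2096), no scaling (2154), no filter (1923), a mean of at least 5 TPM (1724), pseudocounts of 0.1 and 0.5 (2025 and 2056) and no trend (2050), and was 1672 to 1907 when single libraries were left out. It rose to 5394 with library weights and to 3684 with the compared groups alone. Without both NRF2 KO CM libraries numbered 3, a setting chosen after seeing the data, it was 3916, with all 2055 genes among them. With library weights, the sorting by medium gave 3142 genes in WT CM alone, 625 in media alone, 785 in both the same way, 614 in opposite ways and 228 in neither. With the compared groups alone these were 2568, 280, 385, 290 and 161. With the fibroblast covariate, 205 were in media alone, 229 in both the same way and 161 in opposite ways. Leaving out single libraries gave 1334 to 1526 in WT CM alone, 69 to 115 in media alone, 78 to 121 in both the same way, 55 to 76 in opposite ways and 63 to 106 in neither. The WT CM and KEAP1 KO CM difference gave 18 genes with library weights and 0 to 1 when single libraries were left out. The NRF2 KO CM difference gave 4575 with library weights, 1133 with the compared groups alone and 1532 to 2406 when single libraries were left out, the highest without NRF2 KO CM/vehicle replicate 3, and 2949 without both libraries numbered 3. The causes were not tested.

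Replicate numbers are shared between groups, but no source ties them to animals or batches. Deviations from the group mean correlated at 0.0624 to 0.452 in 18 pairs of the same number and at -0.381 to 0.142 in 36 pairs of different numbers, and all 12 libraries were closest to their own number, a hint from the data and not from the design. With the replicate block, 2871 genes passed, 1451 higher and 1420 lower, including all 2055, and the sorting gave 222 in media alone, 269 in both the same way, 200 in opposite ways and 147 in neither.

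Of 146 named genes tested, 128 passed, and 7 of these were not tested at a mean of at least 5 TPM. The other 121 were tested in all 22 settings listed above that were chosen with the design and use the log2 scale, and 113 passed in each. None of the 128 changed direction in any of these settings that tested it. On linear TPM, Apoc2 turned to 1.46. Without single libraries, 123 to 127 passed, and Hmox1 (p up to 0.126), Txnrd1 (0.102), Slc3a2 (0.0803), Acta2 (0.0749), Vegfa (0.067), Apoc2 (0.0657), Gclc (0.0548) and Lpcat3 (0.0524) lost their call in some. Without the filter Hmox1 and Txnrd1 did as well (limma, adjusted p = 0.0781 and 0.0672). With the fibroblast covariate Txnrd1 also lost its call, at -0.632 (limma, adjusted p = 0.062). Changes of sign were confined to genes that did not pass, apart from Apoc2. Nfe2l2 turned to 0.0319 with library weights, 0.022 with the compared groups alone and -0.0681 to 0.101 without single libraries. Ddit3 turned to -0.0447 without scaling and to -0.0124 without WT CM/CDDO-Me replicate 1. Cxcl5 ran from -0.0122 to 1.04 without single libraries, and Gclm to -0.0226 with the fibroblast covariate. Among named genes that did not pass, 8 passed with library weights, 5 with the compared groups alone, 3 with the fibroblast covariate (Nqo1 at -1.51, Pdcd1lg2 at -0.86 and Tgm2 at 1.87), 2 without scaling (Nqo1 and Mki67) and 2 with the replicate block (Nqo1 and Tgm2).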

Other observations

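Il4, which encodes the ligand of the receptor chain Il4ra, was itself listed above 0 in the macrophage libraries, a gene chosen after its values were seen. It was 18.02, 19.3 and 24.6 TPM in media/vehicle, 13.3, 8.37 and 9.104 in media/CDDO-Me, 15.03, 13.8 and 18.5 in WT CM/vehicle and 6.21, 3.55 and 2.71 in WT CM/CDDO-Me. The 3 joint libraries were below the other 9, CDDO-Me lowered it in WT CM past the threshold, and its interaction of -0.71 did not pass, with an interval of -1.79 to 0.36. Il13, which encodes the other ligand of that receptor, was listed at 0 in 11 of the 12 libraries and at 0.128 TPM in 1 WT CM/vehicle library.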
